A study of Homo sapiens with 11 samples.

Results

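The genes described here encode proteins of microfibrils and elastic fibres. They are the microfibril-associated glycoproteins MFAP2 and MFAP5, the fibrillins FBN1 and FBN2, the latent TGF-beta binding proteins LTBP1, LTBP2, LTBP3 and LTBP4, and the fibulins FBLN1 and FBLN5. Members were chosen by symbol, found through the RefSeq accession that the array gives for each probe, and all 10 genes were present, with 14 probes, among 20249 named genes on 42405 probes. FBLN1 had 3 probes, LTBP1 and LTBP4 had a pair each, and the other members had 1. In RefSeq they lie on chromosomes 1 (MFAP2), 2 (LTBP1), 5 (FBN2), 11 (LTBP3), 12 (MFAP5), 14 (LTBP2 and FBLN5), 15 (FBN1), 19 (LTBP4) and 22 (FBLN1).

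Fibrillins polymerise outside the cell into microfibrils, which form the scaffold on which elastin is laid down and then crosslinked by lysyl oxidases. Microfibril-associated glycoproteins decorate these strands, fibulins bridge them to elastin or to basement membranes, and latent TGF-beta binding proteins hold the inactive growth factor in the matrix until it is released. In the lung this network gives alveolar walls their recoil, and most of it is laid down by mesenchymal cells rather than by epithelium.

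RNA came from the established lung adenocarcinoma cell lines A549 and HCC827, infected with a retrovirus carrying either the empty pMXs-Neo vector (mock) or FLAG-tagged wild-type TRIM58 (TRIM58-WT), an E3 ubiquitin ligase gene. All cells, mock included, were selected with G418. The study describes isolated clones for A549, whereas it calls its HCC827 transfectants crude. The labels number the cells of each group without saying whether each is a separate clone, so p-values measure the spread between these samples, which may be technical. A549 mock was covered by 3 replicates on 4 arrays, since arrays 1-1 and 1-2 held the same control cell and were averaged, A549 TRIM58-WT by 3 replicates, and HCC827 mock and TRIM58-WT by 2 replicates each. Values are log2 signals relative to the 75th percentile of the array, on which 0 is the signal that 75% of probes do not exceed, and each probe was compared only with itself, since brightness differs between probes. A549 arrays lay on 2 slides, both with mock and TRIM58-WT, and all HCC827 arrays lay on slide 1.

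The share of probes well above background was 40.1% to 49.99% over the 11 arrays, whose number limits the precision of every comparison. On the arrays labelled TRIM58-WT the TRIM58 probe gave no signal well above background, with values of -5.64 to -4.63, and its place relative to the transferred coding sequence was not analysed here. It was well above background on 1 array, A549 mock replicate 3, at -0.71. Every direction given here thus refers to arrays by their label, TRIM58-WT or mock. Mock replicate 3 also stood apart for several members and over all tested probes, and results that rest on it are given with and without it. Of the epithelial markers, CDH1, KRT7, KRT8 and KRT18 had a probe well above background on all 11 arrays. In A549 TRIM58-WT, KRT19 passed that limit on no array and EPCAM on replicate 1 alone. Of 10 fibroblast and mesenchymal markers, COL1A2, COL3A1, DCN, PDGFRA, PDGFRB and THY1 were not well above background on any array. VIM passed on all 11 arrays and ACTA2 on every A549 array. COL1A1 passed on every A549 TRIM58-WT array and 1 HCC827 mock array, and LUM on A549 mock arrays 1-1, 1-2 and 2. In these bulk RNA samples, fewer cells that express a gene and less RNA per cell cannot be told apart.

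Of the 10 members, 5 had a probe well above background on every A549 array (FBLN1, FBLN5, FBN2, LTBP3 and LTBP4) and 4 on every HCC827 array (the same genes without FBN2). MFAP5 passed that limit in A549 mock alone, on all 4 arrays. FBN1, the main fibrillin of adult microfibrils, and MFAP2 passed it on no array, with values of -5.36 to -4.50 and of -5.23 to -2.57. LTBP2, which binds fibrillin but not latent TGF-beta, was well above background on 1 array, A549 TRIM58-WT replicate 1, at -1.25, against -2.80 and -3.28 in replicates 2 and 3 and -3.71 to -3.47 on the mock arrays. The probe A_33_P3304655 of LTBP1 was well above background on mock array 1-2 alone, at -2.47. These 3 genes and the second LTBP1 probe could not be tested in any comparison and were counted as not tested.

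**Figure D1:**
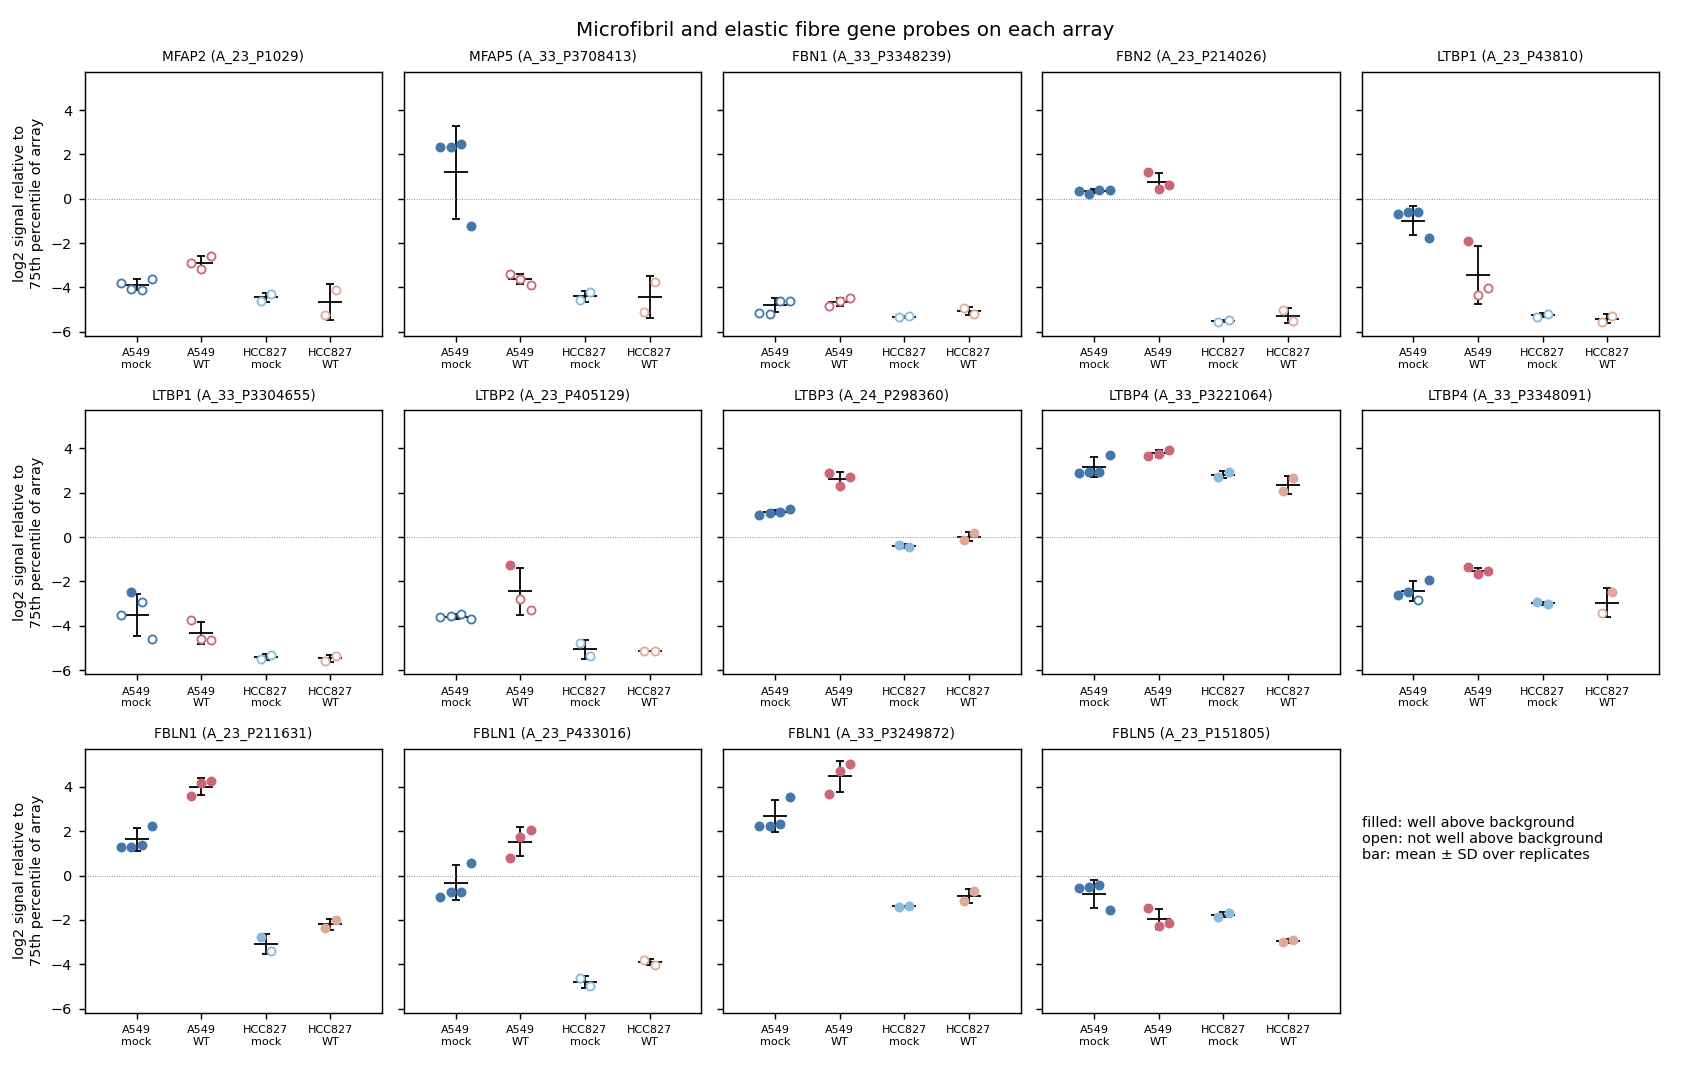
Log2 signal over the array's 75th percentile (vertical axis, log scale) for all 14 probes of the 10 genes, by group on the horizontal axis (WT, TRIM58-WT). Each point is an array, filled where well above background and open where not, and bars give the mean and SD over replicates, with arrays 1-1 and 1-2 counted as 1. FBLN1 and LTBP3 lie higher in A549 TRIM58-WT than in A549 mock, MFAP5 falls to open points, and FBN1 and MFAP2 have open points throughout.

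The RefSeq table of GRCh38.p14 held a promoter window for 9 of the 10 genes, 15 windows in all, and none for MFAP5. The 250 bases upstream of the annotated start are shown for FBLN1 and LTBP3, which rose in A549, and for FBN2, which was detected in A549 but not in HCC827. Capitals mark the GC box GGGCGG or its reverse complement, searched on both strands. The windows are chr22:45502633-45502882 on the plus strand for FBLN1, chr11:65558229-65558478 on the minus strand for LTBP3, whose other annotated start is not shown, and chr5:128538246-128538495 on the minus strand for FBN2.
FBLN1: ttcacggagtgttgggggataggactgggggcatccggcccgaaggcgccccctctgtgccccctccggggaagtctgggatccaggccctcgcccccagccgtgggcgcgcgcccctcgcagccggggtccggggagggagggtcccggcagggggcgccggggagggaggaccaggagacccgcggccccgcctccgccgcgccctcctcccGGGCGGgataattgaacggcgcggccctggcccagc
LTBP3: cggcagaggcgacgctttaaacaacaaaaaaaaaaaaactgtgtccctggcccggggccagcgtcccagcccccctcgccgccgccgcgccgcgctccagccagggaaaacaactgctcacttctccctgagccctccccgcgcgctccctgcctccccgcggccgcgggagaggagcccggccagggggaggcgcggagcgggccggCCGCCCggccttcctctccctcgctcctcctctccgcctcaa
FBN2: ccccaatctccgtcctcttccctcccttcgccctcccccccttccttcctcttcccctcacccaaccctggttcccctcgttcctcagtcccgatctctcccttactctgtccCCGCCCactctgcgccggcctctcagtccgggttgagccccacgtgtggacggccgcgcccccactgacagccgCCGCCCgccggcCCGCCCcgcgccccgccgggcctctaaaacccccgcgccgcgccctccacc
They hold 27, 28 and 25 CpG dinucleotides, above the median of 11 and the upper quartile of 23 over 35116 RefSeq windows of the same length. The windows of FBN1, which was not detected, and of FBN2 hold the same number, 25. Over all members, CpG counts ran from 4 to 33. A GC box was found in 10 of the 15 member windows and in 42.6% of all windows, the AP-1 motif TGANTCA in 1 (6.57%) and the TEAD motif GGAATG in 2 (11.9%). Some windows of a gene overlap, so these counts are not independent, and a match of letters is no measured site.

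In A549, FBLN1 and LTBP3 rose and MFAP5 fell in the arrays labelled TRIM58-WT, and no other tested member passed. Limma tested 7 of the 10 genes, and 3 were called, against 8.53% of 11203 named genes tested over the array (4.17% called higher and 4.36% lower). MFAP5 entered the test through mock alone, so lower was the only direction open to it. A call needed an adjusted p under 0.05 (Benjamini-Hochberg over all probes tested) and a change of at least 2-fold. By probe, 8 of the 10 tested had TRIM58-WT replicates that did not overlap the mock replicates, 6 above and 2 below, where 31% of all tested probes did not overlap. Those below were MFAP5 and LTBP1 (A_23_P43810), which entered through mock alone, so the filter favoured that direction. LTBP4 (A_33_P3348091), among those above, entered through TRIM58-WT alone, and every FBLN1 probe was also among them. The median change over the 10 member probes was 0.75 on the log2 scale, beside 0.06 over all tested probes.

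FBLN1 encodes fibulin-1, which is found in basement membranes and on elastic fibres. Its probe A_23_P211631 stood at 1.31, 1.31, 1.36 and 2.24 on mock arrays 1-1, 1-2, 2 and 3 and at 3.60, 4.16 and 4.28 in TRIM58-WT replicates 1, 2 and 3. Every TRIM58-WT array was above every mock array, and mock replicate 3 was the nearest to them. The mean rose from 1.64 ± 0.53 to 4.01 ± 0.36 (SD, n = 3 each), a log2 change of 2.38 with a standard error of 0.32, or 5.19-fold, at a limma adjusted p of 0.0108. Probe A_23_P433016 stood at -0.96, -0.73, -0.72 and 0.59 in mock and at 0.81, 1.75 and 2.04 in TRIM58-WT. Probe A_33_P3249872 stood at 2.24, 2.22, 2.32 and 3.54 in mock and at 3.68, 4.73 and 5.02 in TRIM58-WT. Neither group pair overlapped, but the gap between mock replicate 3 and TRIM58-WT replicate 1 was small on both probes. Their log2 changes were 1.86 and 1.78, and neither was called (limma adjusted p = 0.0669 and 0.0738). Both were called without mock replicate 3 (2.31 and 2.20) and without TRIM58-WT replicate 1 (2.22 and 2.18). FBLN1 was thus called on 1 of its 3 probes. The called probe, A_23_P211631, was designed on another transcript record of FBLN1 than the others, and isoforms were not analysed. The call on A_23_P211631 was lost without mock replicate 1, mock replicate 2, TRIM58-WT replicate 2 or TRIM58-WT replicate 3, with limma adjusted p values of 0.0549 to 0.061, while the log2 change stayed between 2.21 and 2.68 over the 6 ways of leaving out a replicate. Within slides the change was 2.26 on slide 1 and 2.45 on slide 2.

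Among the latent TGF-beta binding proteins, LTBP3, which is secreted with latent TGF-beta and is known for its role in bone and teeth, was the one called in A549. It stood at 1.00, 1.09, 1.12 and 1.25 on the mock arrays and at 2.91, 2.29 and 2.72 in TRIM58-WT. The groups were far apart, and all 4 mock arrays lay close together, mock replicate 3 included. The mean rose from 1.14 ± 0.10 to 2.64 ± 0.32 (SD, n = 3 each), a log2 change of 1.50 with a standard error of 0.21, or 2.84-fold (limma adjusted p = 0.011). Within slides it was 1.85 and 1.34. The call was lost without mock replicate 1, mock replicate 2 or TRIM58-WT replicate 3 (limma adjusted p of 0.0584 to 0.0685), with values between 1.37 and 1.68 over all 6 omissions. It was also lost with each array centred on its median (1.14, limma adjusted p = 0.0868), a scaling that moved the median change of all probes by -0.37.

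LTBP1, the best known carrier of latent TGF-beta, stood at -0.69, -0.59, -0.60 and -1.75 in A549 mock and at -1.93, -4.34 and -4.02 in TRIM58-WT on probe A_23_P43810. The last 2 values were not well above background, so TRIM58-WT replicate 1 is the only measured level of that group. The log2 change was -2.43 with a 95% confidence interval of -4.07 to -0.79, and limma did not call it (adjusted p = 0.08). Of 15 other settings that left out no replicate, 5 called it. Among them were quantile normalization (-2.71, limma adjusted p = 0.041) and median centring (-2.80, limma adjusted p = 0.00369), on the same values near background. Without TRIM58-WT replicate 1 the fit gave -3.18 and a call (limma adjusted p = 0.0143), but both remaining TRIM58-WT values were then not well above background, so the size is not measured, and under normexp with all replicates the change was -0.44 (limma adjusted p = 0.0893). It was -1.29 on slide 1, which held TRIM58-WT replicate 1, and -3.01 on slide 2.

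LTBP4, which binds fibulins and helps to place elastin on microfibrils, stood on probe A_33_P3221064 at 2.89, 2.93, 2.94 and 3.70 in mock and at 3.64, 3.76 and 3.92 in TRIM58-WT. Mock replicate 3 lay inside the range of TRIM58-WT there. Probe A_33_P3348091 stood at -2.62, -2.49, -2.82 and -1.92 in mock and at -1.37, -1.65 and -1.55 in TRIM58-WT, with no overlap. Limma called neither change, 0.59 (adjusted p = 0.214) and 0.91 (adjusted p = 0.0847). Without mock replicate 3 the second became 1.16 and was called (limma adjusted p = 0.0172).

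MFAP5, which binds fibrillin microfibrils, showed the widest spread of the members within a group. Mock arrays 1-1, 1-2 and 2 stood at 2.35, 2.32 and 2.47, and mock replicate 3 at -1.23, all well above background. TRIM58-WT replicates stood at -3.41, -3.60 and -3.87, none well above background. No TRIM58-WT array reached any mock array, but mock replicate 3 was 3.64 below the mean of the other mock replicates. The mean was 1.19 ± 2.10 in mock and -3.63 ± 0.23 in TRIM58-WT (SD, n = 3 each), and MFAP5 was at least 14.1-fold lower in TRIM58-WT. This bound sets the mock mean against the higher of the dim probe and the lowest signal well above background on each TRIM58-WT array. The fitted log2 change was -4.82 with a standard error of 0.97 (limma adjusted p = 0.0333). Without mock replicate 3 it was -6.03 (limma adjusted p = 2.01e-04). Each of the other 5 omissions (mock replicate 1, mock replicate 2 and TRIM58-WT replicates 1, 2 and 3) ended the call, with values of -4.93 to -4.18 and limma adjusted p of 0.058 to 0.138. Background correction by normexp, with an offset of 50 that shrinks the changes of dim probes, gave -1.89 and no call (limma adjusted p = 0.103). Without a background filter the call was also lost (limma adjusted p = 0.0776).

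FBN2, the fibrillin best known from developing tissue, stood at 0.34, 0.19, 0.38 and 0.41 in A549 mock and at 1.19, 0.42 and 0.64 in TRIM58-WT. The groups touched at mock replicate 3 and TRIM58-WT replicate 2, and TRIM58-WT replicate 1 was the highest. The log2 change was 0.40 with a 95% confidence interval of -0.16 to 0.95, and limma did not call it (adjusted p = 0.349). FBLN5, a fibulin that binds elastin and integrins and is needed to assemble elastic fibres, stood at -0.55, -0.53, -0.42 and -1.54 in mock and at -1.47, -2.28 and -2.14 in TRIM58-WT. Mock replicate 3 was below TRIM58-WT replicate 1, so the groups overlapped. The log2 change was -1.13 (95% confidence interval -2.02 to -0.24), with no call (limma adjusted p = 0.118). Without mock replicate 3 it was -1.48 and was called (limma adjusted p = 0.0305).

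Mock replicate 3 lay apart from the mean of mock replicates 1 and 2 by 0.91 to 1.37 on the FBLN1 probes, -1.13 for LTBP1 (A_23_P43810), -1.06 for FBLN5 and 0.78 and 0.77 for LTBP4, but by 0.16 for LTBP3 and 0.086 for FBN2. Arrays 1-1 and 1-2, the same cell on different slides, differed by at most 0.23 over the 10 tested member probes, and TRIM58-WT replicates 2 and 3 by at most 0.43. Over all tested probes the SD of the difference was 0.29 for arrays 1-1 and 1-2 and 0.24 for TRIM58-WT replicates 2 and 3, which the labels give different cell numbers. It was 0.77 between mock replicate 3 and either of these replicates, and 0.68 to 0.82 between mock replicate 3 and the other mock arrays. TRIM58-WT replicate 1 lay at 0.82 and 0.79 from replicates 2 and 3. The 75th percentile was 60.3, 62.5 and 56.6 on mock replicate 3 and TRIM58-WT replicates 2 and 3, and 90.5 to 103 on the other A549 arrays. What sets these arrays apart was not tested. With TRIM58-WT replicates 2 and 3 averaged to 1 sample, LTBP3 was the only member called, while the share of all tested probes called fell from 6.92% to 1.97%. Markers also differed between A549 mock and TRIM58-WT. Of 6 epithelial genes 4 were called lower in A549 TRIM58-WT (EPCAM, KRT8, KRT18 and KRT19), beside 4.36% of all named genes tested, and KRT19 was at least 723-fold lower. EPCAM and KRT19 entered the test through mock alone, so the filter favoured a lower value for them. CDH1 (-2.33) and KRT7 (0.25) were not called, and the KRT8 probe A_33_P3372368 (0.33) was not lower. The summed signal of the epithelial list, in multiples of the 75th percentile, was 1757 to 2687 in A549 mock and 1222 to 1854 in TRIM58-WT, and that of the fibroblast and mesenchymal list was 27.4 to 180 and 94.6 to 366. Mock replicate 3 had the highest mock value on each list, which is away from TRIM58-WT on the epithelial list. COL1A1 was called higher (at least 7.13-fold), 1 of 3 genes of that list that could be tested, beside 4.17% of all named genes tested. It entered the test through TRIM58-WT alone, so higher was the only direction open to it. VIM stood at 4.65 to 4.86 on mock arrays 1-1, 1-2 and 2, at 7.48 in mock replicate 3 and at 6.53 to 8.50 in TRIM58-WT. LUM of the same list went the other way, well above background on mock arrays 1-1, 1-2 and 2 (0.066, 0.073 and -0.069) and not in mock replicate 3 (-4.18) or in TRIM58-WT (-4.80 to -4.55). The part of these shifts in the member results was not tested.

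**Figure D2:**
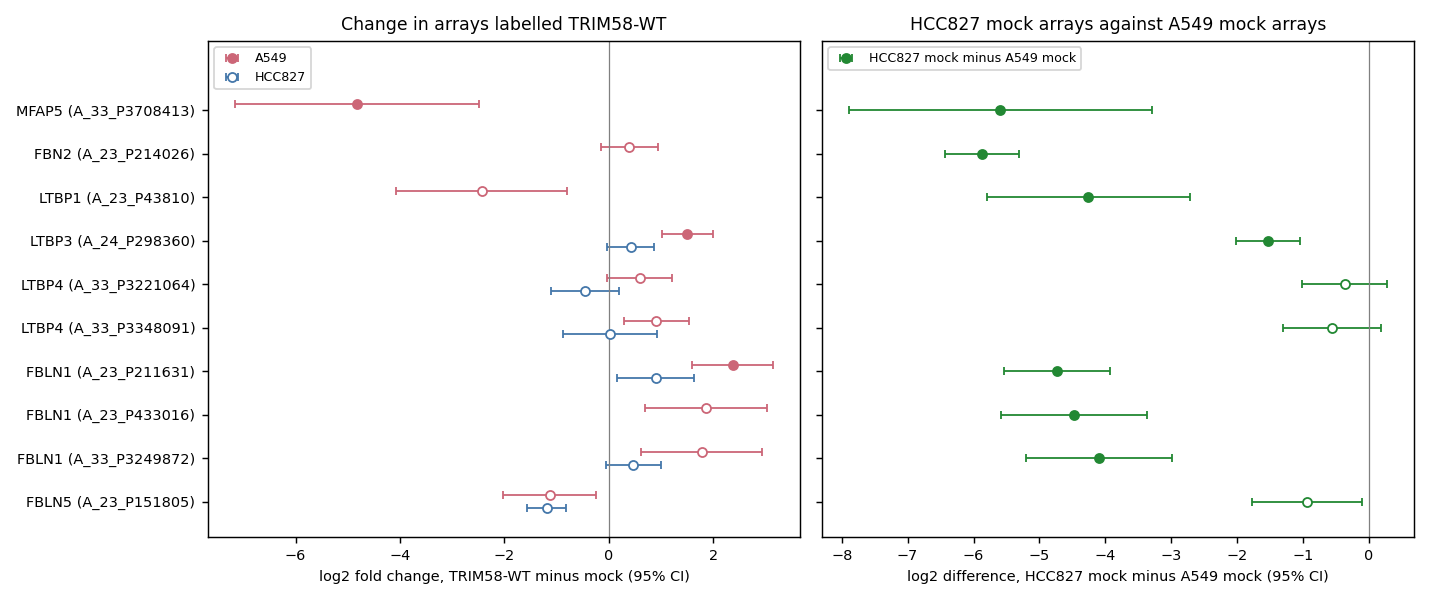
Fitted log2 differences with 95% confidence intervals for the member probes tested, TRIM58-WT minus mock in A549 and HCC827 on the left and HCC827 mock minus A549 mock on the right. Filled points were called (limma adjusted p under 0.05 and at least 2-fold). In A549 the filled points are MFAP5 at -4.82, LTBP3 at 1.50 and 1 FBLN1 probe at 2.38, no HCC827 point is filled, and the filled points on the right all lie below 0. Of these, MFAP5, FBN2 and LTBP1 were not well above background in HCC827 mock.

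**Figure D3:**
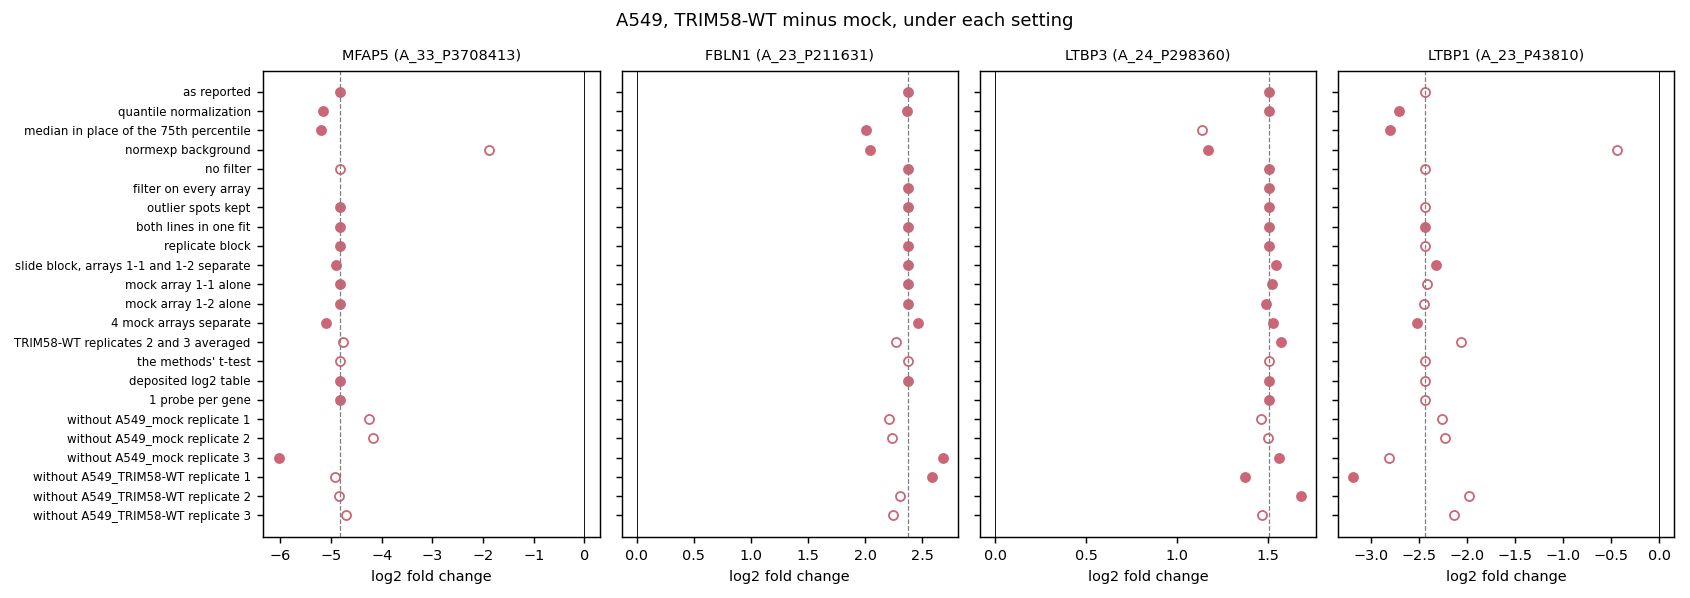
Log2 fold change of MFAP5, FBLN1, LTBP3 and LTBP1 in A549, TRIM58-WT minus mock, under each processing setting on the vertical axis. Filled points were called, the dashed line is the value as reported, and a setting without a point did not test that probe. All points stay on one side of 0, MFAP5 moves between -6.03 and -1.89 and LTBP3 between 1.14 and 1.68.

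In HCC827, no member was called in the arrays labelled TRIM58-WT. Limma tested 4 of the 10 genes (FBLN1, FBLN5, LTBP3 and LTBP4, with 6 probes) and called 0, against 1.17% of 12208 named genes tested over the array. At an unadjusted p under 0.05 there were 2 genes, FBLN5 and FBLN1, with 1 probe each, where 20.3% of all tested probes reached it. The test that the study's methods give for pairs of groups in general, without tying it to the arrays, called no member. It called 0 of 19542 probes on the whole array, so it shows nothing particular to the members. On 5 of the 6 probes the replicates did not overlap, where 56.6% of all tested probes did not overlap. FBLN1 (A_23_P211631), which was among these 5 and lay higher in TRIM58-WT, entered the test through TRIM58-WT alone. The median change was 0.22 over the member probes and 0.01 over all.

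FBLN5 stood at -1.85 and -1.68 in HCC827 mock and at -3.01 and -2.90 in TRIM58-WT. Both TRIM58-WT arrays were lower than both mock arrays by more than the replicates of either group differed. The log2 change was -1.19 with a standard error of 0.14 and a 95% confidence interval of -1.57 to -0.81, and it missed the call at a limma adjusted p of 0.0585. It was called in 3 of 11 other settings that left out no replicate, namely with arrays centred on the median (limma adjusted p = 0.0276), with the background filter asked of every array (0.0266) and with 1 probe per gene (0.0239). Under normexp it shrank to -0.33 (limma adjusted p = 0.145). With both lines in one fit and without a filter the limma adjusted p was 0.304 and 0.232. No call was made in any of the 4 omissions of a replicate, each of which left a group with a single sample. FBLN1 (A_23_P211631) stood at -2.79 and -3.41 in mock and at -2.38 and -2.02 in TRIM58-WT, of which -3.41 was not well above background, and its log2 change was 0.90 (limma adjusted p = 0.193). On A_33_P3249872 it stood at -1.40 and -1.39 in mock and at -1.15 and -0.70 in TRIM58-WT, a change of 0.47 (limma adjusted p = 0.283). The third FBLN1 probe was not well above background on any HCC827 array. LTBP3 stood at -0.34 and -0.45 in mock and at -0.13 and 0.18 in TRIM58-WT, a change of 0.42 with a 95% confidence interval of -0.03 to 0.86 (limma adjusted p = 0.264). LTBP4 stood on A_33_P3221064 at 2.71 and 2.94 in mock and at 2.08 and 2.65 in TRIM58-WT, all well above background, and its changes were -0.46 and 0.03 on its 2 probes, with 95% confidence intervals that span 0. MFAP5, FBN2 and LTBP1 were not well above background on any HCC827 array, at -5.11 to -3.77, -5.56 to -5.03 and -5.59 to -5.19, so no change could be measured there.

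Whether the change differed between the lines was tested as a contrast of all 4 groups. Limma called 0 of 7 members tested, against 5.23% of 12856 named genes, and 5 members had an unadjusted p under 0.05 on 1 probe each (FBLN1, LTBP1, LTBP3, LTBP4 and MFAP5), which 18.4% of all tested probes reached. For LTBP3 the change in HCC827 was smaller than that in A549 by 1.09 on the log2 scale, with a 95% confidence interval of the difference (HCC827 minus A549) of -1.77 to -0.40 (limma adjusted p = 0.0923). For FBLN1 (A_23_P211631) the difference was -1.48, with an interval of -2.63 to -0.33 (limma adjusted p = 0.157). For FBLN5 the changes of -1.13 and -1.19 differed by -0.062, with an interval of -1.24 to 1.12 that leaves room for differences of more than 2-fold either way (limma adjusted p = 0.964). For MFAP5 and LTBP1 the contrast rests on HCC827 values at background. The contrast shares its arrays with the comparisons within each line. Single replicates moved the count, to 3 without A549 mock replicate 3 (FBLN1, LTBP4 and MFAP5) and to 1 without A549 TRIM58-WT replicate 1 (LTBP1). Over all tested probes the share called rose from 3.86% to 10.5% and 7.16% in these fits.

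The mock groups were compared to give the level of each member in the lines themselves. Against A549 mock, HCC827 mock had 5 of 7 tested members called, all lower (FBLN1, FBN2, LTBP1, LTBP3 and MFAP5). Over the array limma called 34.8% of 12410 named genes (16.4% lower and 18.4% higher). FBN2, LTBP1 and MFAP5 were well above background on no HCC827 array and entered the test through A549 mock alone. Lower was thus the only direction open to them. With the filter asked of every array, FBLN1 and LTBP3 were the members called. FBLN1 was 17.0-fold lower on A_33_P3249872, the probe well above background on every array, at -1.39 ± 0.012 (SD, n = 2) in HCC827 and 2.70 ± 0.73 (SD, n = 3) in A549 (limma adjusted p = 2.32e-04). On A_23_P211631, with 1 of the 2 HCC827 mock arrays not well above background, the fitted value was 26.6-fold lower (limma adjusted p = 1.6e-05), and A_23_P433016, not well above background in either HCC827 mock sample, was lower by at least 2.91 on the log2 scale. FBN2 was at least 12.0-fold lower, going from 0.35 ± 0.07 in A549 to not well above background in HCC827 (limma adjusted p = 7.04e-07). For MFAP5 and LTBP1 (A_23_P43810), both at background in HCC827, the bounds were 21.5-fold and 4.70-fold lower at the least (limma adjusted p = 0.00234 and 0.00116). LTBP3 was 2.89-fold lower, at -0.39 ± 0.08 against 1.14 ± 0.10 (limma adjusted p = 5.34e-04). LTBP4 differed by -0.36 and -0.55 on its probes and FBLN5 by -0.93, with no call (limma adjusted p = 0.335, 0.206 and 0.0692). The same 5 genes were called without any single replicate, with FBLN5 as a sixth without A549 mock replicate 3. The HCC827 arrays were all on slide 1, and 6 members, FBLN5 added, were called with the 4 A549 mock arrays as separate samples, both with and without slide as a block.

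Ordered by group mean, FBLN1 (A_23_P211631) ran from A549 TRIM58-WT at 4.01 over A549 mock at 1.64 and HCC827 TRIM58-WT at -2.20 to HCC827 mock at -3.10, and the test did not tell the last 2 apart. LTBP3 took the same order, at 2.64, 1.14, 0.03 and -0.39, again with HCC827 TRIM58-WT and mock not told apart by the test. FBLN5 ran from A549 mock at -0.83 over HCC827 mock at -1.77 and A549 TRIM58-WT at -1.96 to HCC827 TRIM58-WT at -2.96, and no neighbouring pair that was tested passed. MFAP5 was measured in A549 mock alone and FBN2 in both A549 groups alone.

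Other genes of the elastic fibre pathway were followed as a list of 29, chosen by function. In A549, 13 could be tested and 5 were called, beside the 8.53% of all genes given above, 4 of them higher (LOXL2, LOXL3, TGFB1 and TGFB2) and 1 lower (THSD4). LOXL3 (A_24_P88763) and TGFB2 entered the test through TRIM58-WT alone, so the filter itself favoured a higher value for them. The median change over the list was 0.35, beside 0.06 over all probes. By role, these were 2 of 2 tested lysyl oxidases, 1 of 3 tested microfibril-associated ADAMTS proteins, 2 of 4 tested latent TGF-beta and matrix partners, and 0 of 4 tested elastin accessory proteins (1 at an unadjusted p under 0.05). ELN, the elastin gene itself, was well above background on 1 array, A549 TRIM58-WT replicate 1, at -1.52 on A_23_P215454, against -3.14 and -3.78 in replicates 2 and 3. LOX, the founding lysyl oxidase, passed that limit on none of the 11 arrays.

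TGFB1, one of the growth factors that LTBPs hold, stood at -1.33, -1.19, -1.16 and 0.72 in A549 mock and at 1.72, 2.08 and 2.30 in TRIM58-WT. TGFB2, its relative, stood at -2.79, -2.98, -2.83 and -1.17 in mock, of which the first 3 were not well above background, and at 0.01, 0.43 and 0.49 in TRIM58-WT. In both genes mock replicate 3 lay between the other mock arrays and TRIM58-WT. The log2 changes were 2.60 with a standard error of 0.54 (limma adjusted p = 0.0369) and 2.61 with a standard error of 0.48 (limma adjusted p = 0.0256). Over the 6 omissions of a replicate, TGFB1 was called in 1 (without mock replicate 3, 3.25) and TGFB2 in 2 (3.17 without mock replicate 3 and 2.76 when TRIM58-WT replicate 1 was left out). With 3 of its 4 mock arrays not well above background the size of the TGFB2 change is uncertain. Under normexp, whose added offset of 50 shrinks the changes of dim probes, it was 0.96 and not called (limma adjusted p = 0.0334, under 2-fold). TGFB3 was well above background on 1 array, HCC827 TRIM58-WT replicate 1, at -3.10.

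LOXL2, an extracellular lysyl oxidase that crosslinks collagen, stood at 3.09, 3.03, 3.12 and 4.21 in A549 mock and at 5.20, 5.08 and 5.25 in TRIM58-WT. LOXL3, of the same family, stood at -3.04, -2.97, -3.21 and -3.05 in mock (A_24_P88763), with only array 1-2 well above background, and at -1.32, -0.32 and -1.20 in TRIM58-WT. Neither gene's groups overlapped. The log2 changes were 1.72 (standard error 0.33, limma adjusted p = 0.0287) and 2.14 (standard error 0.29, limma adjusted p = 0.0106). LOXL2 kept its call in 1 of 6 omissions, without mock replicate 3 (2.09), and LOXL3 lost it in 2, without mock replicate 1 (2.19) and without mock replicate 2 (2.08). The size of the LOXL3 change rests on mock values not well above background on 3 of 4 arrays, and under normexp it was 0.68 and not called (limma adjusted p = 0.0608). THSD4, an ADAMTS-like protein that promotes fibrillin-1 assembly, stood at 0.26, 0.17, 0.41 and 0.26 in mock and at -2.43, -1.70 and -1.57 in TRIM58-WT (A_33_P3384462). Mock replicate 3 did not stand apart there. The log2 change was -2.19 with a standard error of 0.26 (limma adjusted p = 0.00698), and it was called in all 6 omissions, at -2.36 to -1.92. In HCC827, 13 genes of the list were tested and 1 was called, beside the 1.17% of all genes. This was VCAN, a large proteoglycan that binds fibrillin, which stood at 1.30 and 1.13 in mock and at -0.41 and -0.39 in TRIM58-WT, a log2 change of -1.61 with a standard error of 0.14 (limma adjusted p = 0.036). The call was lost in each of the 4 omissions of a replicate, at -1.69 to -1.53, but each omission left a group with a single sample. The list's median change in HCC827 was 0.26, beside 0.01.

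**Figure D4:**
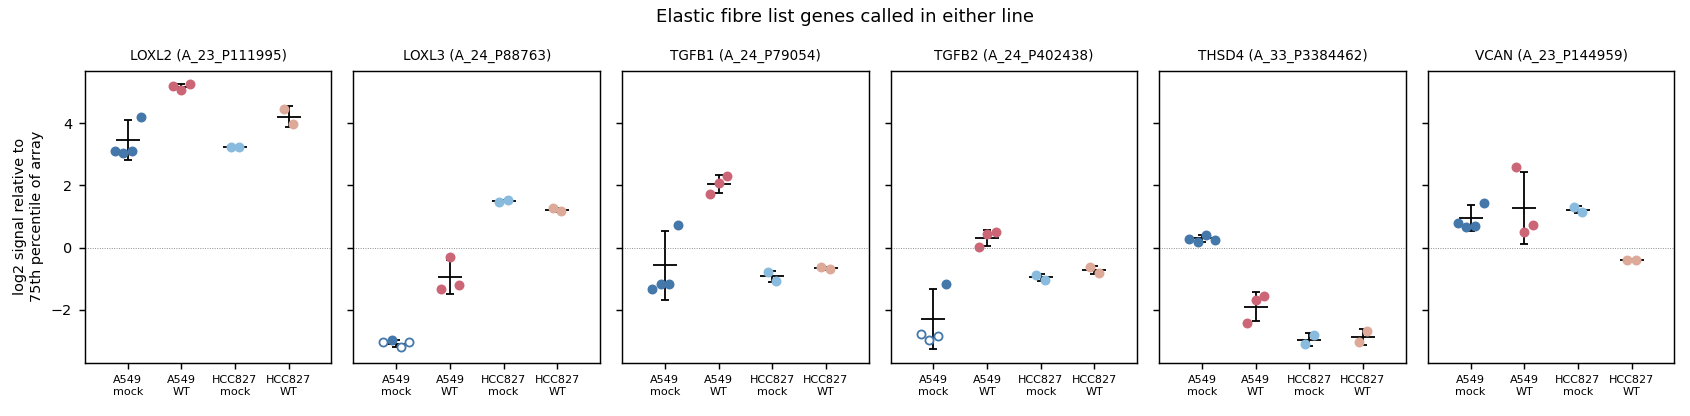
Log2 signal over the array's 75th percentile (vertical axis, log scale) for the 6 genes of the elastic fibre list called in either line, by group (WT, TRIM58-WT). Each point is an array, filled where well above background, and bars give mean and SD over replicates. TGFB1 and TGFB2 of mock replicate 3 lie between the other mock points and TRIM58-WT, and THSD4 is low in A549 TRIM58-WT and both HCC827 groups.

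For the members called in A549, the named probes with the most similar pattern were found by the mean absolute difference of centred log2 values over the 10 replicates. Nearest to FBLN1 (A_23_P211631) were COL7A1, the collagen of anchoring fibrils, at 0.33, the magnesium channel gene TRPM6 at 0.36 and the kinesin gene KIF26A at 0.37. Nearest to LTBP3 were CLEC11A at 0.16, TCEA2 at 0.18 and CREB3L2 at 0.18, and nearest to MFAP5 were the receptor tyrosine kinase gene KIT at 0.26, the guanine deaminase gene GDA at 0.33 and the myosin gene MYO1A at 0.33.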

How the data were processed

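RNA of 11 samples was hybridised in 1 colour to Agilent 8 x 60k arrays, and the authors deposited the scanner files, whose processed signal intensity was background-subtracted by Agilent Feature Extraction (version 11.5.1.1 in the file headers, 10.7 in the submitters' processing notes). A table of log2 values was deposited as well, and 93.8% of its values lay within 0.01 of those computed here once each probe was shifted by its median difference over the arrays. The methods name GeneSpring GX, Benjamini-Hochberg adjustment and a 2-fold change, and for pairs of groups in general they give a t-test for unequal variances or a rank test, without tying either to the arrays (the former was run as an alternative). The normalization of the arrays is not given in the sources used here.

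After removal of control and outlier spots, which left 28 probe values missing, signals were averaged over the spots of each probe, and log2 values were expressed relative to the 75th percentile of their array (56.6 to 125 in signal, with no saturated spot). A probe entered a test where all arrays of any group compared showed it well above background. Tests used limma 3.58.1 in R 4.3.3 (lmFit, eBayes), within A549, within HCC827, for HCC827 mock against A549 mock, and for the difference of the change between lines, which was called at an adjusted p under 0.05 alone. A gene was called where any of its probes was. Names came from RefSeq (27241 probes, 64.2%). Figures were drawn with matplotlib 3.10.9.

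The members, the lists and the tests were chosen with earlier results of these data known. The genes named are all members, the genes of the elastic fibre list called in either line with ELN, LOX, TGFB1, TGFB2 and TGFB3, TRIM58, marker genes, and the 3 genes most like each called member. Alternatives covered normalization, background, filter, fit, replicate and slide blocks, mock arrays 1-1 and 1-2, 1 probe per gene, the deposited log2 table and each replicate left out. The steps were tested on simulated data.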

Additional observations from a re-analysis of the deposited data

Results flagged for a closer look

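The change of LOXL3 (A_24_P88763), from 2.14 in A549 to -0.29 in HCC827, differed between the lines by -2.44 on the log2 scale (HCC827 minus A549, limma adjusted p = 0.0163). It was called without any single A549 replicate and lost without any single HCC827 replicate, at -2.48 to -2.39 (limma adjusted p of 0.0604 to 0.0799). It was also lost with median centring (-2.04, limma adjusted p = 0.144) and with the replicate block (limma adjusted p = 0.0675), and the other LOXL3 probe, A_23_P39799, gave -0.30 (limma adjusted p = 0.916). The change of THSD4 (A_33_P3384462), from -2.19 in A549 to 0.10 in HCC827, differed by 2.29 (limma adjusted p = 0.0174). That call was lost without A549 mock replicate 1 or 2, without HCC827 mock replicate 1 or 2 and without HCC827 TRIM58-WT replicate 2, at 2.11 to 2.44 (limma adjusted p of 0.0508 to 0.0944), and with quantile normalization (2.55, limma adjusted p = 0.0657).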

How the results depend on the processing

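In A549 the count of members called, 3 as reported, was 5 with both lines in one fit and with the 4 mock arrays separate, with or without slide as a block (slide was fitted only on separate arrays, so its own effect is the step between those settings), 1 with TRIM58-WT replicates 2 and 3 averaged, 0 with the methods' t-test, and 0 to 5 with a replicate left out. That of the elastic fibre list, 5 as reported, was 3 under normexp and with the filter on every array, 2 with replicates 2 and 3 averaged, 0 with the methods' t-test, and 1 to 6 with a replicate left out. In HCC827 the members went from 0 to 1 with median centring, the filter on every array and 1 probe per gene. The list went from 1 to 2 with median centring and the filter on every array, and to 0 without a filter, in one fit, with the methods' t-test, with the replicate block and with any replicate left out. For the difference between lines, 0 members became 1 under normexp (FBLN1) and with 4 mock arrays separate, with or without slide as a block (LTBP3 in both), and 0 to 3 with a replicate left out. Between the mock groups 5 became 3 under normexp and 2 with the filter on every array. Over all probes, the A549 count of 1171 ran from 297 to 2193 with a replicate left out and was 24 with the methods' t-test. It was 1571 with both lines in one fit, 1729 and 1802 with 4 mock arrays separate (without and with slide), and 333 with TRIM58-WT replicates 2 and 3 averaged. For the difference between lines, 796 probes became 1358 and 1688 with 4 mock arrays separate (without and with slide). The member counts thus moved along with those of the whole array in these settings. In HCC827 no probe of the whole array was called without a filter, with the methods' t-test or with the replicate block. Calls lost in those HCC827 settings are therefore not particular to these genes.

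Same-numbered A549 samples correlated at 0.50, -0.42 and 0.50 in their deviations from the group mean, and mock replicate 3 with TRIM58-WT replicate 2 at 0.57. Same-numbered HCC827 samples correlated at 0.08, where deviations from a mean of 2 samples mirror each other. These values do not settle whether the numbers pair samples, and the fits as reported treated them as unpaired. The replicate block left 3 members called in A549, 0 in HCC827 and 0 for the difference, and could not be fitted between the mock groups.

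No called value changed sign in any setting. Of the uncalled values, the A549 change of VCAN became -0.058 with median centring and ran from -0.35 to 0.70 with a replicate left out. In HCC827, with a replicate left out, THSD4 ran from -0.081 to 0.29, LTBP4 (A_33_P3348091) from -0.43 to 0.49 and LOXL3 (A_23_P39799) from -1.28 to 0.038. The difference between lines became, for FBLN5, 0.19 with quantile normalization, 0.34 with median centring, 0.068 with normexp, 0.011 with 4 mock arrays separate and -0.27 to 0.29 with a replicate left out. For LOXL3 (A_23_P39799) it became 0.18 with quantile normalization, 0.098 with median centring and -1.20 to 0.36 with a replicate left out. For FBN2 it became 0.25 with median centring and -0.39 to 0.094 with a replicate left out. The causes were not tested. Of 1159 single values recomputed, 1022 kept direction and side of the threshold, 74 lost and 42 gained the threshold. Levels near background limit MFAP5, LTBP1, LOXL3 and TGFB2. Their changes shrank under normexp, whose offset of 50 shrinks the changes of dim probes by construction. The uncalled change of FBLN5 shrank there as well, to -0.40 in A549 and -0.33 in HCC827.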
